A study of Homo sapiens with 6 samples.

Results

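MALAT1, NEAT1 and the host transcripts of small nucleolar RNAs (snoRNAs) were followed in K562 pTRE-ERG cells through 10 genes: MALAT1, NEAT1, GAS5, SNHG1, SNHG3, SNHG5, SNHG6, SNHG8, SNHG12 and SNHG16. A probe set was a member where the platform annotation gave it 1 gene symbol and that symbol was one of these. This held for 13 of the 54613 probe sets tested, 12 of MALAT1 and 1 of GAS5, so that 2 of the 10 genes had a member. GAS5 was also, and the 8 genes other than MALAT1 and GAS5 were only, covered by 23 probe sets whose annotation joins the host with the RNAs nested in it (NEAT1 with MIR612, for example). Those 23 are described separately, under their joint annotation, and their values are not given as values of the host.

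K562 is a human erythroleukemia line derived from chronic myeloid leukemia, and the 3 stably transfected clones CL4, CL9 and CL46 carry a tet-on construct from which doxycycline (DOX) induces ERG, a transcription factor of the ETS family. Each clone gave 1 array labelled ERG-induced, grown with 1 µg/ml DOX for 8 days, and 1 array labelled non-induced, grown without DOX, so that each group held 3 Affymetrix U133 Plus 2.0 arrays. All cultures share the K562 background and the pTRE-ERG construct, each line is 1 clone, and no culture without the construct is among these arrays, so effects of ERG and of DOX cannot be told apart. The question asked of these RNAs was which of them differed between the arrays labelled ERG-induced and those labelled non-induced.

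A deposited value is the ratio of a probe set to its own median over the 6 arrays, given here as log2, so that 0 is that median. Brightness is lost in this step. Whether a probe set was above background is unknown, the levels of different genes cannot be compared, and the erythroid markers of K562 cells could not be checked as levels. ERG did not read higher with the label ERG-induced. The mean of its 4 probe sets differed by -1.35 in CL4, -0.80 in CL9 and -0.14 in CL46 (log2, labelled ERG-induced minus labelled non-induced). The mean difference was -0.76 (SE 0.63, limma with Benjamini-Hochberg adjustment, adjusted p = 0.671), so neither a fall nor a rise of ERG was shown. Whether the probes of ERG fall inside the introduced sequence is not known, and every direction below is that of the labels. The median ratio per array was 0.898 to 0.998 with the label ERG-induced and 0.990 to 1.07 with the label non-induced. In these bulk samples, less RNA per cell and fewer cells that carry an RNA cannot be told apart.

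MALAT1 and NEAT1 are long noncoding RNAs that stay in the nucleus and are transcribed from neighbouring genes. MALAT1 accumulates in nuclear speckles, bodies rich in splicing factors, and its end is cut by RNase P rather than by the usual polyadenylation machinery. NEAT1 is the scaffold on which paraspeckles are built, together with RNA-binding proteins such as SFPQ and NONO. GAS5 and the SNHG genes are spliced noncoding transcripts whose introns carry snoRNAs, the guides that direct ribose methylation and pseudouridylation of ribosomal RNA. In human cells the spliced exons of GAS5 and of several SNHG transcripts are substrates of nonsense-mediated decay, and many of these hosts open with a tract of pyrimidines like that of ribosomal protein mRNAs.

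The sequences around the annotated starts of MALAT1 and GAS5 are shown because these are the genes with member probe sets and because ERG, as an ETS factor, binds sites with a GGAA core. They are the RefSeq windows of GRCh38.p14, 250 bases before to 50 bases after the start, and each GGAA, read on either strand and so also as TTCC, is in capitals. The set of windows used here held 8 of the 10 genes. NEAT1 and SNHG6 were not in that set.
MALAT1, upstream start, chr11:65497488-65497787, plus strand: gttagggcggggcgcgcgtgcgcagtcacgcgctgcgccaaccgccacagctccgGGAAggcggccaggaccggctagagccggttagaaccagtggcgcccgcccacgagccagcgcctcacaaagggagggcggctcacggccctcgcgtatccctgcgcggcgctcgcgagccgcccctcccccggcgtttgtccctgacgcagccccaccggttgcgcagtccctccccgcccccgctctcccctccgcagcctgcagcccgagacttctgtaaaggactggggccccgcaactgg
MALAT1, downstream start, chr11:65498795-65499094, plus strand: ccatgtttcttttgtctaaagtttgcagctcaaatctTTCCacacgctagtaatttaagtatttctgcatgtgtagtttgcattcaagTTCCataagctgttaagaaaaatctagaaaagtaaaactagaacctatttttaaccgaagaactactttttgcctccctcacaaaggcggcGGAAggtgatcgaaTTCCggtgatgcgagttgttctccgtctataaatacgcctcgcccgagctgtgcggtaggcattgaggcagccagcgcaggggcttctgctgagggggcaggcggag
GAS5, chr1:173868996-173869295, minus strand: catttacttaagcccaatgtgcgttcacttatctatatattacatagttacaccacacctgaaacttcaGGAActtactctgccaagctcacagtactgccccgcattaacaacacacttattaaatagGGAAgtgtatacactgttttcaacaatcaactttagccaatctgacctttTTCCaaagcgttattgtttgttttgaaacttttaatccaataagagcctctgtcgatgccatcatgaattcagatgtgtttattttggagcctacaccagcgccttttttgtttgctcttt

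The upstream MALAT1 window held 1 GGAA, the downstream MALAT1 window 4 and the GAS5 window 3. Of 35114 RefSeq windows of the same length, 95.5% held at least 1 GGAA on either strand, with a median of 3. The longer motif CCGGAA, which contains a GGAA and was also searched on both strands, occurred 1 time in the downstream MALAT1 window, 0 times in the other 2 windows, and in 17.2% of all windows. These are matches of letters only and do not show binding.

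The first 20 bases from the annotated start (RefSeq, GRCh38.p14) are shown for the snoRNA hosts, since the pyrimidine tract begins there. The unbroken run of C or T from the first base is in capitals.
SNHG12, chr1:28581854-28581873, minus strand: CCTTTCTCCCCgccgcattc
SNHG5, chr6:85678714-85678733, minus strand: CTTTTacgtcggccttcgcg
SNHG1, chr11:62855866-62855885, minus strand: CTCatttttctactgctcgt
SNHG8, chr4:118278762-118278781, plus strand: Cacattcgggaagcgtcggg
SNHG3, chr1:28505943-28505962, plus strand: gattctctaactgcgcatgc
SNHG16, chr17:76557764-76557783, plus strand: gcgttcttttcgaggtcggc
GAS5, chr1:173869026-173869045, minus strand: agatgtgtttattttggagc

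The run was 11 bases in SNHG12 and 5 in SNHG5, while SNHG1 had 3, SNHG8 had 1, and SNHG3, SNHG16 and GAS5 had 0. A run of 4 or more was found in 7.19% of all windows. The run depends on the exact base that RefSeq gives as the start.

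MALAT1 was lower in the arrays labelled ERG-induced in all 3 clones, and least so in CL4. Over the 12 probe sets its log2 ratio averaged -0.16 in CL4, -1.89 in CL9 and -0.81 in CL46 in the arrays labelled ERG-induced, against 0.47 in CL4, 0.13 in CL9 and 0.51 in CL46 in those labelled non-induced. Every array labelled ERG-induced was therefore below every array labelled non-induced, with CL9 far below the other 2 clones. The group means were -0.96 ± 0.88 in arrays labelled ERG-induced and 0.37 ± 0.21 in arrays labelled non-induced (SD, n = 3 each). The log2 difference was -1.33 (2.51-fold lower, SE 0.48, 95% confidence interval -2.51 to -0.14; limma, adjusted p = 0.346). A feature was called where it differed by at least 2-fold with an unadjusted p under 0.05 in limma. MALAT1 met this, which 6.32% of the 19775 genes passed as lower and 3.12% as higher. MALAT1 was thus the 1 called gene of the 2 with a member, and 0 of the 2 passed in the other direction. No gene passed an adjusted p under 0.05 in limma (0 of 19775, lowest 0.101), while 2544 had an unadjusted p under 0.05. The MALAT1 call was lost without CL9 (-0.98), without CL46 (-1.33), with ordinary in place of moderated variances (-1.33), with the median over its probe sets (-1.26) and with 224559_at alone (-1.20), the probe set left when those ending in _x_at or _s_at were set aside.

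**Figure D1:**
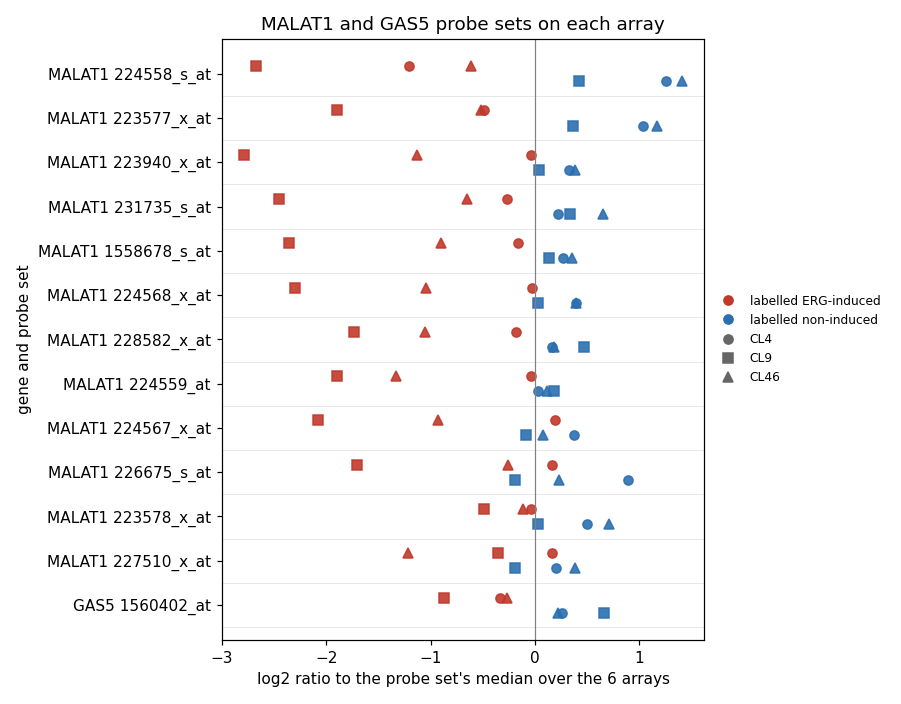
Log2 ratio of each MALAT1 and GAS5 probe set on the 6 arrays (horizontal axis, 0 is the probe set's median), with arrays labelled ERG-induced in red above those labelled non-induced in blue, and the clone given by the marker shape. In 10 of the 13 rows all red markers lie left of all blue ones, and the CL9 square labelled ERG-induced reaches -2.79.

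Over the 13 members, all were lower with the label ERG-induced in all 3 clones. The share of all probe sets lower in all 3 clones was not counted. The members had log2 differences between -2.53 and -0.60 and a median of -1.27, beside a median of -0.09 over all probe sets. Of the 13, 3 were called lower, beside 8.16% of all probe sets, and 0 were called higher, beside 2.82%. In 10 of the 13 the arrays labelled ERG-induced all lay below those labelled non-induced, which held for 15.1% of all probe sets, and in 0 they all lay above, which held for 7.14%. The 12 MALAT1 probe sets are annotated to the same gene and are not independent of each other. Over the 6 arrays the 66 pairs of MALAT1 probe sets correlated with r between 0.43 and 0.998 (median 0.90), a description of arrays that share clone and treatment. No probe set passed an adjusted p under 0.05 in limma (0 of 54613, lowest 0.086), while 7180 had an unadjusted p under 0.05.

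The fall was widest at 224558_s_at and 223577_x_at. Probe set 224558_s_at had log2 ratios of -1.20 in CL4, -2.67 in CL9 and -0.61 in CL46 in the arrays labelled ERG-induced, against 1.25 in CL4, 0.43 in CL9 and 1.42 in CL46 in those labelled non-induced. The groups did not overlap, and all 3 clones fell by a wide margin (-2.46 in CL4, -3.10 in CL9 and -2.03 in CL46). Its log2 difference was -2.53 (5.77-fold lower, SE 0.63, limma adjusted p = 0.224). Probe set 223577_x_at read -0.49 in CL4, -1.90 in CL9 and -0.52 in CL46 in arrays labelled ERG-induced, against 1.04 in CL4, 0.37 in CL9 and 1.17 in CL46 in arrays labelled non-induced. Again the groups were apart and CL9 was low in both of them. The log2 difference was -1.83 (3.55-fold lower, SE 0.51, limma adjusted p = 0.246). The third called probe set, 228582_x_at, read -0.18 in CL4, -1.74 in CL9 and -1.06 in CL46 in arrays labelled ERG-induced, against 0.16 in CL4, 0.47 in CL9 and 0.19 in CL46 in arrays labelled non-induced. Here CL4 stood close to its non-induced array while CL9 and CL46 were well below theirs, and the log2 difference was -1.27 (2.41-fold lower, SE 0.46, limma adjusted p = 0.336).

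Leaving out a clone changed these calls. Without CL4, 224558_s_at (-2.56) and 223577_x_at (-1.97) were no longer called, and 223577_x_at was also not called without CL46 (-1.90). Probe set 228582_x_at was not called without CL9 (-0.80), without CL46 (-1.28), with ordinary variances or with the clone as a block (-1.27), and the block left 2 member probe sets called. Leaving out CL4 brought in 223940_x_at (-2.17), 224559_at (-1.77) and 224568_x_at (-1.88).

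The other 9 MALAT1 probe sets did not pass the call, although 6 of them had a mean difference beyond 2-fold. Probe set 223940_x_at differed by -0.37 in CL4, -2.83 in CL9 and -1.52 in CL46 (mean -1.57, SE 0.72). Probe set 231735_s_at differed by -0.50 in CL4, -2.79 in CL9 and -1.31 in CL46 (mean -1.53, SE 0.63). For 1558678_s_at the differences were -0.43 in CL4, -2.50 in CL9 and -1.26 in CL46 (mean -1.39, SE 0.60). In each of these the difference was small in CL4, wider in CL46 and widest in CL9. Probe set 224568_x_at had a mean difference of -1.39 (SE 0.61), and 224559_at, the 1 MALAT1 probe set with the plain _at ending, had one of -1.20 (SE 0.52). In 224559_at the array of CL4 labelled ERG-induced read -0.04 and its non-induced array 0.03, so that this clone hardly differed. The arrays of the groups overlapped in 3 probe sets: 224567_x_at (mean difference -1.06), 226675_s_at (-0.91) and 227510_x_at (-0.60). Probe set 227510_x_at differed in its clone pattern, with -0.04 in CL4, -0.17 in CL9 and -1.61 in CL46. Probe set 223578_x_at had the evenest differences over the clones, -0.53 in CL4, -0.52 in CL9 and -0.82 in CL46 (mean -0.62, SE 0.31), and its groups did not overlap.

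**Figure D2:**
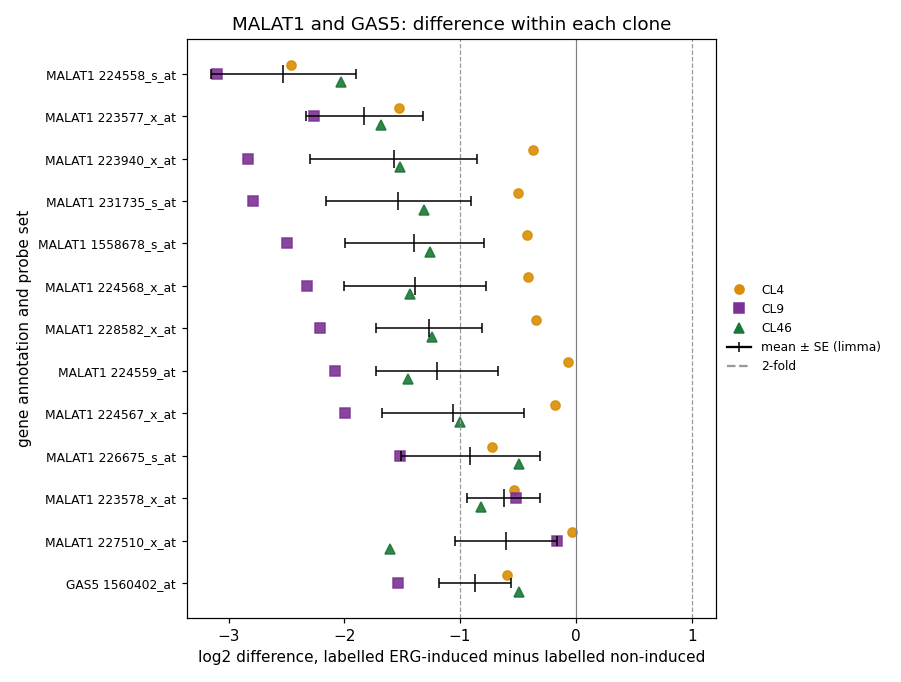
Log2 difference between the arrays labelled ERG-induced and those labelled non-induced (the first minus the second) for the MALAT1 and GAS5 probe sets within each clone (coloured markers), with the mean and its standard error from limma (black). All markers lie below 0, and CL4 is within 0.73 of 0 in every MALAT1 row except 224558_s_at and 223577_x_at.

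The clones differed in how far MALAT1 was lowered. The median difference over its probe sets was -0.42 in CL4, with a range from -2.46 to -0.04. In CL9 the median was -2.24, with a range from -3.10 to -0.17. In CL46 it was -1.37, with a range from -2.03 to -0.49. The widest difference was that of CL9 in 10 probe sets, that of CL46 in 2 and that of CL4 in 0. With 1 pair of arrays per clone, a difference between clones could not be tested.

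In every clone the control probe sets for rRNA read higher with the label ERG-induced than with the label non-induced. The 3 probe sets of the small-subunit rRNA had mean log2 ratios of 0.14 in CL4, 0.43 in CL9 and 0.39 in CL46 in arrays labelled ERG-induced, against -1.07 in CL4, -0.16 in CL9 and -0.44 in CL46 in arrays labelled non-induced. The differences were 1.21 in CL4, 0.59 in CL9 and 0.82 in CL46, with CL4 the widest (mean 0.87, SD 0.32, n = 3 clones; two-sided exact permutation p = 0.1, the smallest that 3 against 3 arrays allow). The 3 probe sets of the large-subunit rRNA differed by 0.06 (CL4), 0.47 (CL9) and 0.71 (CL46). The 3′ minus 5′ contrast of ACTB differed by -0.15 (CL4), 0.59 (CL9) and 0.23 (CL46). Its clones had the same order as in the size of the MALAT1 difference. Those of the small-subunit rRNA had the reverse order, and those of the large-subunit rRNA had neither. The 3′ minus 5′ contrast of GAPDH differed by 0.02 on average. The part of these control probe sets in the result for MALAT1 was not tested.

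GAS5, whose introns carry a set of C/D snoRNAs, had 1 member probe set, 1560402_at. Its log2 ratios were -0.33 in CL4, -0.87 in CL9 and -0.27 in CL46 in arrays labelled ERG-induced, against 0.26 in CL4, 0.67 in CL9 and 0.22 in CL46 in arrays labelled non-induced. The groups did not overlap, and CL9 was both the lowest labelled ERG-induced and the highest labelled non-induced. The log2 difference was -0.87 (1.83-fold lower, SE 0.31, 95% confidence interval -1.65 to -0.10, limma over all probe sets, adjusted p = 0.334), short of the 2-fold threshold. Without CL9 it was -0.54. Within the clones it differed by -0.59 (CL4), -1.53 (CL9) and -0.49 (CL46).

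The 4 probe sets annotated to GAS5 together with 8 snoRNAs ran in opposite directions. All 8 lie within the GAS5 gene in RefSeq. Probe set 228238_at read -0.27 in CL4, -0.87 in CL9 and -0.43 in CL46 in arrays labelled ERG-induced, against 0.53 in CL4, 0.81 in CL9 and 0.23 in CL46 in arrays labelled non-induced. It was called lower, with groups apart and a log2 difference of -1.05 (2.07-fold lower, SE 0.32, limma adjusted p = 0.271). The call was lost without CL4 (-1.17), without CL9 (-0.73), without CL46 (-1.24), with arrays centred on their medians (-0.94), after quantile normalization (-0.89) and with log2(ratio + 0.1) (-0.95). Probe set 227517_s_at had a difference of -0.63 (SE 0.29), with its groups also apart. In 224741_x_at the arrays labelled ERG-induced read 0.15 in CL4, 0.21 in CL9 and 0.10 in CL46, against -0.12 in CL4, -0.11 in CL9 and -0.32 in CL46 in arrays labelled non-induced. In 224841_x_at they read 0.10 in CL4, 0.37 in CL9 and 0.19 in CL46, against -0.13 in CL4, -0.11 in CL9 and -0.27 in CL46 in arrays labelled non-induced. In both of these the arrays labelled ERG-induced all lay above the others, with log2 differences of 0.33 (95% confidence interval -0.28 to 0.95) and 0.39 (95% confidence interval -0.24 to 1.02) that did not pass the call. The part of GAS5 that each probe set reads could not be taken from the annotation used.

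Of the 9 probe sets annotated to NEAT1 together with MIR612, a microRNA gene inside NEAT1, 3 were called lower and 0 higher, beside 8.16% and 2.82% of all probe sets. Probe set 227062_at read -1.03 in CL4, -1.99 in CL9 and -0.06 in CL46 in arrays labelled ERG-induced, against 1.19 in CL4, 0.06 in CL9 and 0.67 in CL46 in arrays labelled non-induced. The groups were apart by little, as CL46 labelled ERG-induced and CL9 labelled non-induced nearly met. The log2 difference was -1.67 (3.18-fold lower, SE 0.60, limma adjusted p = 0.333). Probe set 224566_at read -1.13 in CL4, -1.41 in CL9 and 0.06 in CL46 in arrays labelled ERG-induced, against 0.92 in CL4, -0.06 in CL9 and 1.00 in CL46 in arrays labelled non-induced. Its groups overlapped, since CL46 labelled ERG-induced was above CL9 labelled non-induced, and its log2 difference was -1.45 (2.73-fold lower, SE 0.53, limma adjusted p = 0.344). Probe set 214657_s_at read -0.72 in CL4, -0.48 in CL9 and -0.17 in CL46 in arrays labelled ERG-induced, against 0.79 in CL4, 0.15 in CL9 and 0.71 in CL46 in arrays labelled non-induced. There the groups were apart, and the log2 difference of -1.01 was just past 2-fold (SE 0.32, limma adjusted p = 0.294).

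None of these 3 calls held in every setting. Without CL4, 227062_at was at -1.39, 224566_at at -1.15 and 214657_s_at at -0.75, and none was called. Without CL9, 227062_at (-1.48) and 224566_at (-1.50) were not called, and without CL46, 214657_s_at (-1.07) was not. Both scalings also took 214657_s_at under the fold threshold (-0.90 centred, -0.87 quantile), as did log2(ratio + 0.1) (-0.92). With ordinary variances 227062_at and 224566_at were not called.

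The remaining probe sets annotated to NEAT1 together with MIR612 mostly shared this direction without passing the call. Their log2 differences were -1.61 at 234989_at, -1.35 at 225239_at, -1.28 at 224565_at and -1.26 at 239269_at. All 4 were negative in every clone, and all 4 were called lower once the clone was a block, which raised the calls among the 23 joint probe sets to 8, against 4 without it. Probe set 238320_at differed by 0.01 (CL4), -1.24 (CL9) and -0.84 (CL46), and its large spread (SE 1.28) came with low readings in both CL46 arrays. Probe set 220983_s_at carries the same joint annotation, but its listed RefSeq target belongs to SPRY4, and it stood apart from the rest at -0.63 in CL4, 0.53 in CL9 and 3.82 in CL46. Of the other 8, 7 were lower in all 3 clones, a share that was not counted over all probe sets. Over these 8, the median log2 difference was -1.31, with clone medians of -1.54 (CL4), -1.44 (CL9) and -0.86 (CL46). The wider differences were thus those of CL4 and CL9 here and those of CL9 and CL46 for MALAT1, and this order of the clones could not be tested.

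**Figure D3:**
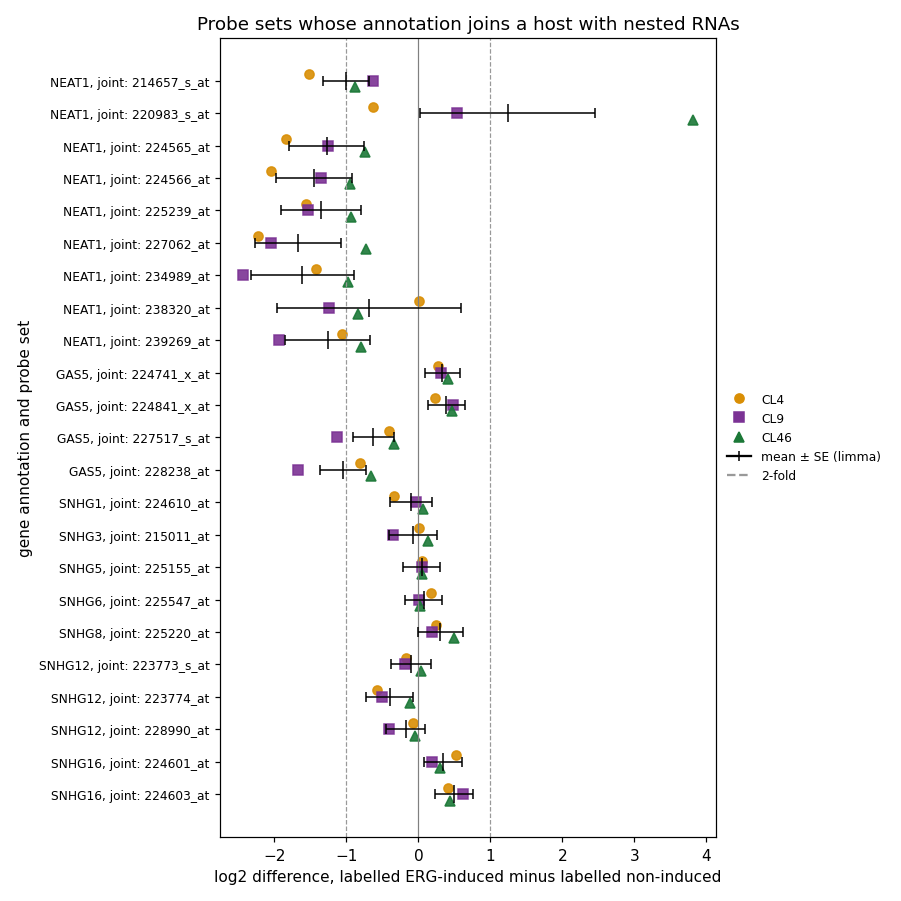
Log2 difference between the arrays labelled ERG-induced and those labelled non-induced (the first minus the second) for the 23 probe sets whose annotation joins a host with nested RNAs, within each clone (coloured markers) and as mean with standard error from limma (black). The means of the rows with NEAT1 lie left of 0 except that of 220983_s_at, and the mean of every row with an SNHG gene lies between -0.40 and 0.49.

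The 10 probe sets that join an SNHG host with its snoRNAs lay close to 0. Of them 0 passed the call in either direction, beside 8.16% of all probe sets called lower and 2.82% higher. Their log2 differences ran from -0.40 to 0.49 with a median of -0.01. Those with SNHG16, which hosts C/D snoRNAs, were highest. Probe set 224603_at read 0.06 in CL4, 0.31 in CL9 and 0.38 in CL46 in arrays labelled ERG-induced, against -0.35 in CL4, -0.32 in CL9 and -0.06 in CL46 in arrays labelled non-induced. Its groups did not overlap, and the log2 difference was 0.49 (SE 0.26, 95% confidence interval -0.16 to 1.15). The other probe set with SNHG16, 224601_at, differed by 0.34 (95% confidence interval -0.32 to 1.00), also with groups apart. SNHG8, host of the H/ACA snoRNA SNORA24, was read jointly by 225220_at, which differed by 0.31 (95% confidence interval -0.47 to 1.09) with overlapping groups.

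The probe sets with SNHG5, SNHG6, SNHG3 and SNHG1 differed by 0.10 or less in size. Probe set 225155_at, which joins SNHG5 with SNORD50A and SNORD50B, differed by 0.05 (95% confidence interval -0.60 to 0.69), with 0.04 in CL4, 0.05 in CL9 and 0.05 in CL46. Probe set 225547_at, which joins SNHG6 with SNORD87, differed by 0.07 (95% confidence interval -0.55 to 0.70). For SNHG1, a host of 8 C/D snoRNAs on this platform, 224610_at differed by -0.10 (95% confidence interval -0.83 to 0.63), a sign that turned after centring (0.004). For SNHG3, host of SNORA73A, 215011_at differed by -0.07 (95% confidence interval -0.90 to 0.76), a sign that turned after centring (0.033) and after quantile normalization (0.063). The 3 probe sets that join SNHG12 with its 3 H/ACA snoRNAs differed by -0.40 at 223774_at (95% confidence interval -1.21 to 0.41), -0.17 at 228990_at and -0.11 at 223773_s_at.

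**Figure D4:**
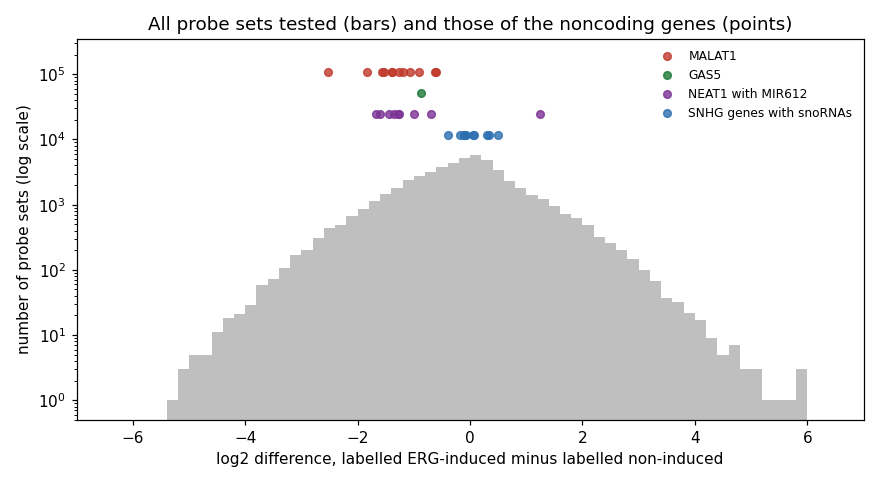
Number of probe sets (log scale) by log2 difference, labelled ERG-induced minus labelled non-induced, over all 54613 tested (grey bars), with the MALAT1, GAS5 and joint probe sets as points above them at arbitrary heights. The MALAT1 points lie between -2.53 and -0.60, inside the range of the grey bars, and those of SNHG genes with snoRNAs lie around 0.

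The genes whose log2 ratio ran most like the MALAT1 mean over the 6 arrays were ZNF148 (r = 0.999), ATP2B1 (r = 0.998), SAP18 (r = 0.997), OSBPL9 (r = 0.996) and MTIF2 (r = 0.996). These are the highest of all other genes by rule, and the arrays share clones and labels. ATP2B1, a plasma membrane calcium pump, was called lower (log2 difference -1.66, limma adjusted p = 0.306), though not without CL46 (-1.62). OSBPL9, a lipid-binding protein, was also called lower (-1.14, limma adjusted p = 0.363), though not without CL9 (-0.83) or CL46 (-1.07), after quantile normalization (-0.92), with log2(ratio + 0.1) (-0.99) or with ordinary variances. The zinc finger factor ZNF148 differed by -0.99, the mitochondrial translation factor MTIF2 by -0.84 and SAP18 by -0.52, and none of them was called.

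No other noncoding snoRNA host was called with all clones. Of 20 listed, 9 had a probe set with 1 symbol, and 0 were called in either direction, beside 6.32% of all genes called lower and 3.12% higher. Their median log2 difference was -0.14, beside -0.03 over all genes. SNHG19 differed by -0.85 and SNHG32 by 0.60, while SNHG10 ranged from -4.61 in CL4 to 1.20 in CL46 (mean -1.81). Without CL46, SNHG10 (-3.31) and SNHG19 (-1.03) were called lower. Of the protein-coding snoRNA hosts 10 of 17 were measured, with a median of 0.05, and 1 was called lower, beside 6.32% of all genes. This was TAF1D, a subunit of the polymerase I factor SL1, at -1.35 (limma adjusted p = 0.353), a call lost without CL4 (-1.68), CL9 (-0.91) or CL46 (-1.47) and with ordinary variances.

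Among paraspeckle proteins, the partners of NEAT1, 15 of 17 were measured and 2 were called lower and 0 higher, beside 6.32% and 3.12% of all genes. Their median was -0.51. TAF15 differed by -1.70 (SE 0.26, limma adjusted p = 0.192) and HNRNPH3 by -1.32 (limma adjusted p = 0.212). Both remained called in 9 alternatives that refit the data, though not at a limma adjusted p under 0.05. The other summaries of a gene (median over probe sets, or without _x_at and _s_at probe sets) were not among these 9. Those summaries had removed the MALAT1 call. HNRNPA1 (-0.96) and CPSF6 (-0.92) were not called, and CPSF7 was called lower only without CL46 (-1.97). Of 10 nuclear speckle proteins, the surroundings of MALAT1, 9 were measured, 3 were called lower and 0 higher, and the median was -0.14. The 3 were PNN at -1.11 and the splicing factors SRSF1 at -1.11 and SRSF3 at -1.07, with limma adjusted p of 0.237, 0.315 and 0.347 in that order. After quantile normalization all 3 calls were lost (PNN -0.94, SRSF1 -0.95, SRSF3 -0.89), with log2(ratio + 0.1) as well (PNN -0.99, SRSF1 -0.97, SRSF3 -0.89), and likewise without CL9 (PNN -0.96, SRSF1 -0.77, SRSF3 -0.84). SRSF1 was also lost without CL4 (-1.11). SRSF3 was also lost without CL46 (-0.84), after centring (-0.97), with ordinary variances and with the clone as a block (-1.07), and the block left 2 called.

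Among the subunits of RNase P and RNase Z, the enzymes that process the end of MALAT1, 10 of 11 were measured, with a median of -0.17. Calls in this list and in the 3 after it (1, 1, 2 and 1 lower, 0 higher) stand beside 6.32% of all genes called lower and 3.12% higher. RPP30, an RNase P subunit, was called lower at -1.66 (SE 0.32, limma adjusted p = 0.192). RPP30 remained called in the same 9 alternatives, without the other summaries of a gene, though not at a limma adjusted p under 0.05. RPP25, another subunit, differed by 0.86 and was called higher only without CL9 (1.14) and after quantile normalization (1.04). Of the snoRNP proteins and assembly factors, which package the snoRNAs, 15 of 17 were measured, the median was 0.13, and NOP58, a core protein of C/D particles, was the 1 called (-1.10, limma adjusted p = 0.236). That call was lost without CL9 (-0.93), after centring (-0.996), after quantile normalization (-0.90) and with log2(ratio + 0.1) (-0.98). Of the nonsense-mediated decay factors, which degrade spliced GAS5, 9 of 15 were measured, with a median of 0.14 and 2 called lower. UPF2, a core factor of this pathway, differed by -1.88 (SE 0.29, limma adjusted p = 0.192) and XRN1, an exonuclease, by -1.48 (limma adjusted p = 0.196). Both of these remained called in the same 9 alternatives, without the other summaries of a gene, though not at a limma adjusted p under 0.05. Of 16 other long noncoding RNAs, 14 were measured, the median was -0.22, and NORAD, which binds PUMILIO proteins, was called lower (-1.10, limma adjusted p = 0.248). It was not called without CL9 (-0.84), without CL46 (-1.12), after centring (-0.996), after quantile normalization (-0.94) or with log2(ratio + 0.1) (-0.998). DLEU2 (-1.28) was called only with the clone as a block.

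**Figure D5:**
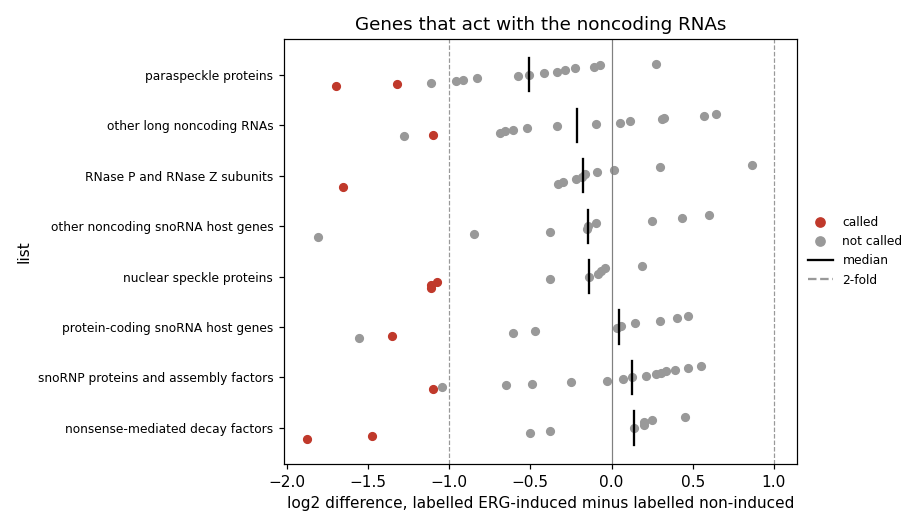
Log2 difference between the arrays labelled ERG-induced and those labelled non-induced (the first minus the second) for each measured gene (points) in 8 lists of genes that act with these noncoding RNAs or resemble them, with the genes called in red and the median of each list as a black bar. All red points lie below -1, and the list medians lie between -0.51 and 0.14.

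Erythroid markers and markers of other cells were examined as differences only. Of the erythroid list 7 of 10 were measured, with a median of -0.17, from -1.67 to 0.71 (KLF1). In it 1 was called lower, TFRC, the transferrin receptor, at -1.67. TFRC stayed called in the same 9 alternatives, without the other summaries of a gene, though not at a limma adjusted p under 0.05. The fibroblast list had 6 of 6 measured and 1 called lower (COL1A1, -1.09), with a median of -0.03, from -1.22 to 1.59. The lymphocyte list had 4 of 5 measured and 1 called lower (CD3D, -1.24), with a median of -0.46, from -1.71 to 0.54. The monocyte list had 3 of 4 measured and 0 called. The calls in these lists stand beside 6.32% of all genes called lower and 3.12% higher. CD14, a monocyte marker, differed by -0.48 (CL4), 5.40 (CL9) and 2.49 (CL46), with a mean of 2.47 (SE 1.11), in the same clone order as the size of the MALAT1 difference, and it was called higher only without CL4 (3.94). The other monocyte markers measured were LYZ at 1.17 (CL4), -0.02 (CL9) and 0.74 (CL46) and CSF1R at 1.49 (CL4), -2.16 (CL9) and -0.72 (CL46). Both ran in the reverse clone order to CD14. COL1A1 was not called without CL4 (-0.85), without CL9 (-1.11) or under either scaling (-0.99 and -0.95), with log2(ratio + 0.1) (-0.87) or with ordinary variances, nor CD3D without CL9 (-1.08), without CL46 (-1.21) or under either scaling (-1.13 and -1.01) or with ordinary variances. MS4A1, a lymphocyte marker, was called lower only with the clone as a block (-1.71). Summed levels and markers at 0 could not be read from ratios, and the part of other cells in the values above was not tested.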

How the data were processed

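Total RNA of 3 K562 pTRE-ERG clones, each with and without DOX, was hybridized by the authors to 6 U133 Plus 2.0 arrays and analysed by them in GeneSpring. The deposited values are linear ratios in which each probe set is divided by its own median, since 50737 of 54675 probe sets had a median of 1 over the 6 arrays (tolerance 1e-05) and 3938 one below 1. Background correction and array scaling: not given in the sources used here. Here, the number of arrays limits the precision, and the clones are the replicates. The limma error is the spread between clones within each group, drawn by eBayes towards a value shared by all features. It can therefore be wider or narrower than the spread of a probe set's own values.

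The log2 of each deposited ratio was used, with no floor. Left out of the fit were 62 control probe sets, used for the RNA checks only. Among the 54613 tested, 1 symbol was given for 41091, several for 1801 and none for 11721, and 41037 names were matched to RefSeq by gene ID. The groups were compared over all probe sets, and over the means of 19775 genes, in R 4.3.3 by limma 3.58.1, with tables read by the R package data.table (1.17.8): lmFit and eBayes without trend, two-sided, Benjamini-Hochberg adjusted over all features, no pairing. The fit was tested on simulated data. Calls needed a fold of 2 or more, as in the study's methods, and an unadjusted p under 0.05.

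Named were every member, up to 4 genes of each companion list with the smallest p, and the 5 genes most like MALAT1. The same rule for NEAT1 could not be applied, as it had no probe set with 1 symbol. The members and lists were chosen with earlier results of these data known. Alternatives were the clone as a replicate block, median centring, quantile normalization, no moderation, log2(ratio + 0.1), leaving out probe sets with medians below 1, other thresholds, other summaries of a gene, and leaving out each clone. The arrays are paired by the shared clone. Across genes, the deviations of the pair of arrays of a clone from their group means correlated with r = 0.036 (CL4), 0.049 (CL9) and 0.031 (CL46). There were 0 value columns without a mapped sample.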

Additional observations from a re-analysis of the deposited data

Results flagged for a closer look

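One signal lay outside the gene probe sets. The 3 control probe sets of the small-subunit rRNA differed by 0.87 on the log2 scale, labelled ERG-induced minus labelled non-induced (SD 0.32, n = 3 clones; two-sided exact permutation p = 0.1, the smallest possible here), and the arrays labelled ERG-induced all lay above those labelled non-induced. The 3 control probe sets of the large-subunit rRNA differed by 0.41 (two-sided exact permutation p = 0.2). Their part in the MALAT1 values was not tested.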

How the results depend on the processing

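All 13 member probe sets kept their direction in the 9 alternatives that refit the data, and their adjusted p lay between 0.178 and 0.954. Of the values of the 36 member and joint probe sets under these alternatives, 282 kept direction and call, 24 lost the call, 12 gained it and 6 turned sign. The member probe sets called numbered 3 and became 0 at an adjusted p under 0.05, and 1 to 4 with a clone left out. The member genes called numbered 1 and became 0 with ordinary variances, with the median over probe sets, without _x_at and _s_at probe sets or at an adjusted p under 0.05, 2 at a fold of 1.5, and 0 to 1 with a clone left out. MALAT1 was at -1.33 and lost its call with ordinary variances (-1.33), with the median over probe sets (-1.26) and without _x_at and _s_at probe sets (-1.20). It ranged from -1.67 to -0.98 with a clone left out. With the clone as a replicate block, the paired fit gave 2 member probe sets, 1 member gene and 8 joint probe sets called, against 3, 1 and 4. It changed no call of GAS5, and over all probe sets it called 4430 lower and 1714 higher, against 4454 and 1539. The joint calls became 2 after centring, after quantile normalization, with ordinary variances and with log2(ratio + 0.1), and 0 without CL4 or at an adjusted p under 0.05. The sign turned at 224610_at after centring (0.004) and at 215011_at after centring (0.033) and quantile normalization (0.063). With a clone left out, 224610_at ranged from -0.18 to 0.018, 215011_at from -0.17 to 0.072 and 220983_s_at from -0.052 to 2.17. The median of all probe sets was -0.09 as deposited, 0.01 centred and 0.04 after quantile normalization, and calls lower and higher numbered 4454 and 1539, 3800 and 1836, and 3484 and 2036 in that order. The cause of these shifts was not tested. Ratios give no signal over background, so dim probe sets could not be told from bright ones.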
